A study of Mus musculus with 11 samples.

Results

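Colon macrophages labelled EP4 knockout were compared with colon macrophages labelled wild type at day 39 of colitis induced by dextran sodium sulphate (DSS). The comparison took the 3 libraries titled day 39 and Csf1r-EP4-/- (here KO) and the 3 titled day 39 and WT, which are 6 of the 11 libraries of the series. The other 5 were day 0 libraries, 3 KO and 2 WT, and entered the model and the genotype by day interaction. The deposited tables of the libraries titled day 39 are named day 35, and the day is given here as titled. Both groups received 2.5% DSS, a polymer that damages the colon lining, for 5 days in their drinking water, and no label states how many courses of DSS preceded day 39. Both groups consisted of mouse colon cells described by the surface pattern CD45+ CD11b+ Ly6G- Ly6C- MHCII+ CD64+. The labels name the mutant strain only, and do not state what drove the deletion, which exons were deleted, the age or sex of the mice, or whether the numbered libraries came from separate animals. If they did not, the p-values below measure only the spread between these libraries, which may be technical.

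EP4, encoded by Ptger4, is one of the receptors of prostaglandin E2, a lipid made from arachidonic acid by the cyclooxygenases and prostaglandin E synthases. EP4 couples to the G protein that stimulates cAMP production and so to protein kinase A and the transcription factor CREB. It can also signal through phosphoinositide 3-kinase. In the gut, prostaglandin E2 is known for its part in epithelial repair, and macrophages that line the mucosa both respond to it and secrete chemokines, cytokines and growth factors. Csf1r encodes the receptor of the growth factor that macrophages depend on.

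Of 6987 genes tested at day 39, 2 passed the threshold of an adjusted p of 0.05 in edgeR's quasi-likelihood test (0.0286% of genes tested), and both fell in the libraries labelled KO. They were Tnnc2, the calcium-binding troponin subunit of fast skeletal muscle, and Pvalb, a calcium buffer of fast muscle fibres and some neurons. No gene passed in the other direction (0.0% of genes tested), although 509 genes (7.28%) had an unadjusted p under 0.05, 184 of them higher and 325 lower in KO. Beyond these 2 genes the smallest adjusted p was 0.491. Below, a gene is called where edgeR's adjusted p is under 0.05, unless another tool is named. In edgeR no listed gene of macrophages, of prostaglandin signalling or of inflammation was called. DESeq2, a count test with another treatment of spread, called 555 of the tested genes (7.94%) and limma-voom 34 (0.487%), and limma-voom called neither Tnnc2 nor Pvalb. For most genes the design could resolve only very large differences. The median standard error (SE) of the log2 fold change was 3.90 across the whole table. It was 2.16 for the 845 genes whose counts averaged 1000 or more in the 6 libraries. A few very abundant RNAs had a smaller SE, such as 0.15 for the ribosomal precursor Rn45s and 0.40 for Actb. Without KO replicate 3 the test again called 2 genes, the same 2.

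The 6 libraries held between 4003299 and 5000994 counts. Between 2533 and 3303 genes had at least 100 counts in a library, and the 100 most abundant genes took between 35.3% and 39.3% of the counts. Of 23282 entries, 12321 had no count in any of the 6 libraries and 1828 had a count in all of them. A gene that was abundant in a group was often nearly missing from 1 of its libraries. Of 13029 values of genes that averaged at least 100 CPM (counts scaled by TMM to a library of 1000000) in the other libraries of their group, 5241 (40.2%) were 10 counts or fewer. There were 3288 genes that reached 1000 counts in one or more of the 6, and 353 of these (10.7%) reached it in a single library and 10 or fewer in each of the other 5. The common biological coefficient of variation was 2.48 in the fit to all 11 libraries. With only the 6 day 39 libraries, where 2973 genes were tested, it was 1.85. Fewer cells of a type cannot be told apart from less RNA per cell.

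Ptger4 itself was the first gene examined, since its level can be set against the genotype given. It had 1, 8 and 4501 counts in KO and 1481, 152 and 7286 in WT. The groups overlap, because KO replicate 3 had more than WT replicates 1 and 2. This library goes against its label, as far as reads near the 3′ end can check it: if the deleted exons lie elsewhere in the gene, these reads check nothing. Ptger4 averaged 433 ± 748 CPM (SD, n = 3) in KO and 691 ± 811 CPM in WT. The log2 fold change was -0.67 ± 2.15 (SE), with an edgeR adjusted p of 1. An exact two-sided permutation test of the CPM gave p = 0.5, where 3 libraries against 3 cannot go below 0.1. Without KO replicate 3 the difference in mean level was -690.2 CPM. Without WT replicate 3 it was 194 CPM, with KO the higher group. At day 0 Ptger4 had 1350, 0 and 890 counts in KO and 0 and 0 in WT. KO replicates 1 and 3 of day 0 thus also carried Ptger4 reads, and neither WT library did. Directions below therefore refer to the labels alone. The genes of the other prostaglandin E2 receptors could not be tested. Ptger2 and Ptger3 had no count in these 6 libraries, and Ptger1 had 670 counts in WT replicate 1 and none in the others.

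Among the genes of the sort markers, those of MHC class II were abundant throughout and the others were not. H2-Aa had 29604, 41075 and 34417 counts in KO and 30726, 35433 and 52179 in WT. Its log2 fold change was -0.09 ± 0.42 (edgeR adjusted p = 1), and the sign turned to 0.11 without WT replicate 3. H2-Ab1 (-0.28 ± 0.51) and H2-Eb1 (-0.25 ± 0.46) also had overlapping groups. Ptprc, the gene of CD45, had 215, 5 and 0 counts in KO and 1332, 940 and 1182 in WT, without overlap, and a log2 fold change of -3.88 ± 3.76 (edgeR adjusted p = 0.726). Every cell of the sort should carry CD45, so the defining marker was at or near 0 in KO replicates 2 and 3. Itgam (CD11b) had 3, 3336 and 4 counts in KO and 444, 1934 and 1 in WT. Fcgr1 (CD64) had 1, 111 and 2063 in KO and 7, 0 and 1207 in WT. Each of these was thus close to absent in libraries of both groups. Ly6g was not analysed here.

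**Figure D1:**
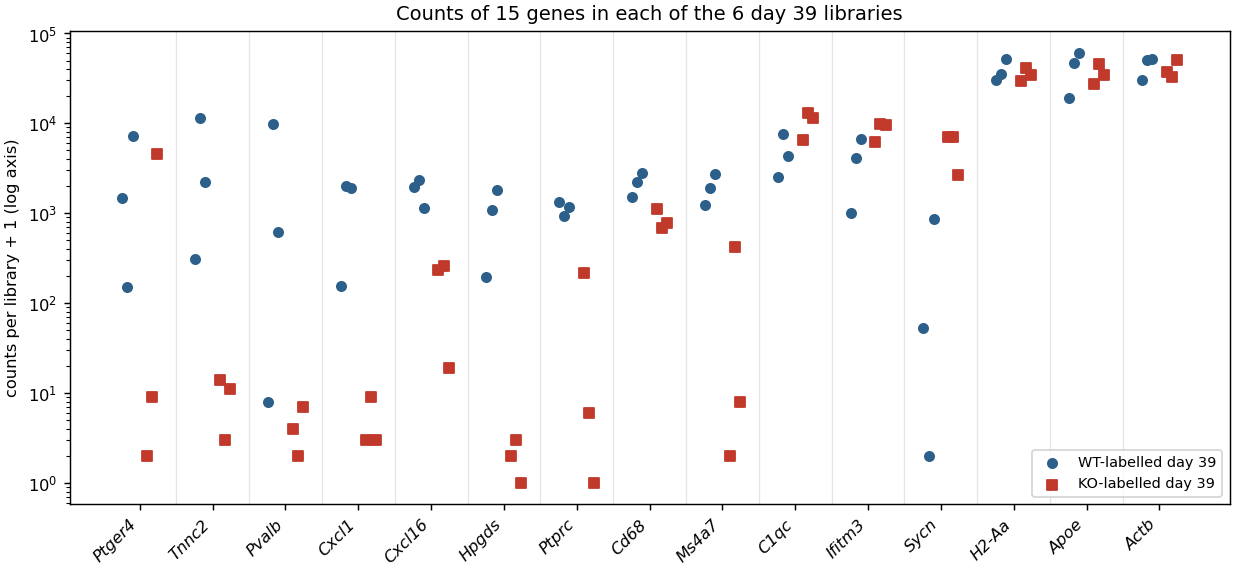
Counts plus 1 (log axis) of 15 genes in each day 39 library, with WT-labelled libraries as circles and KO-labelled libraries as squares. Tnnc2, Pvalb, Cxcl1, Cxcl16, Hpgds and Ptprc were lower in all KO-labelled libraries, Sycn, C1qc and Ifitm3 had higher CPM in all of them, and H2-Aa, Apoe and Actb lay close together. Ptger4 overlapped, with 4501 counts in KO replicate 3.

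Tnnc2 had 13, 2 and 10 counts in KO and 307, 11461 and 2223 in WT at day 39. Tnnc2 averaged 2.21 ± 1.59 CPM (SD, n = 3) in KO and 896 ± 1070 CPM (n = 3) in WT, so the groups did not overlap, but WT replicate 2 carried most of the WT level. The log2 fold change was -8.65 ± 1.79, with an edgeR adjusted p of 0.00953. Pvalb had 3, 1 and 6 counts in KO and 7, 9888 and 624 in WT. WT replicate 1, with 7 counts, was hardly above the KO libraries. The level was 0.901 ± 0.773 CPM in KO and 652 ± 1010 CPM in WT, and the log2 fold change was -9.48 ± 2.06 (edgeR adjusted p = 0.0144). These fitted folds set a group near 0 against a high one, so their size rests on a few counts in KO. At day 0 the order of the labels was the other way for Tnnc2 in every library and for Pvalb in some. Tnnc2 had 2628, 21683 and 41046 counts in KO and 2095 and 1521 in WT at day 0, and Pvalb had 9, 22465 and 30153 in KO and 2 and 3149 in WT. The interaction of genotype and day had an edgeR adjusted p of 0.0583 for Tnnc2, the smallest of all genes, and 0.101 for Pvalb. No gene passed for the interaction (0.0% of genes tested), where 1006 genes had an unadjusted p under 0.05.

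Both calls were lost when certain single libraries were left out, while the fitted folds stayed large. Without WT replicate 2 the log2 fold change was -7.15 ± 1.90 for Tnnc2 and -6.40 ± 2.13 for Pvalb, and the edgeR adjusted p was 0.691 for both. Without KO replicate 1 the folds were -9.16 and -9.46 (adjusted p = 0.0956 and 0.255), and without KO replicate 2 they were -8.16 and -9.01 (adjusted p = 0.532 and 0.549). Without KO replicate 3 the adjusted p was 0.0449 for both.

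The promoters of the 2 called genes are shown because they fell together and both encode proteins of fast muscle. Each sequence is the RefSeq window of build GRCm38.p6 from 250 bases before to 50 bases after a start site, all on the minus strand, with each match to the E-box CANNTG in capitals. The E-box is the binding motif of basic helix-loop-helix factors such as the myogenic regulators. Tnnc2 lies at chr2:164779685-164779984, and Pvalb has a start at chr15:78206351-78206650 and another at chr15:78204188-78204487.
Tnnc2: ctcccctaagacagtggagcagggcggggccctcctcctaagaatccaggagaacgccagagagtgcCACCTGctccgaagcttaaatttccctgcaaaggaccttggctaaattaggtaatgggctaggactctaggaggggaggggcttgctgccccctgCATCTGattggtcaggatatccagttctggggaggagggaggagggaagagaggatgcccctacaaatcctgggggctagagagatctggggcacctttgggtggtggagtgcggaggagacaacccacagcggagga
Pvalb start 1: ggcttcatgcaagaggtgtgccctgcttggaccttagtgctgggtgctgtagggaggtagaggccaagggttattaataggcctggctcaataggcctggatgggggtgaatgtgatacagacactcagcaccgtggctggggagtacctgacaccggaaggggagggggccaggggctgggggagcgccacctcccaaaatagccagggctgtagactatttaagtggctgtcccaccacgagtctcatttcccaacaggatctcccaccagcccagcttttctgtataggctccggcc
Pvalb start 2: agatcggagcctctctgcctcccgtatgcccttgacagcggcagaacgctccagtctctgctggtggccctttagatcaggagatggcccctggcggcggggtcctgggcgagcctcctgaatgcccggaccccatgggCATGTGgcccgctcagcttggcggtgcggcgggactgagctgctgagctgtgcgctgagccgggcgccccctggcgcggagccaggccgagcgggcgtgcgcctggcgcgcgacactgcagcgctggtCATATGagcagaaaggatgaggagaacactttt

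The Tnnc2 window held 2 E-boxes, the window at Pvalb start 1 held 0, and the window at Pvalb start 2 held 2. The motif reads as CANNTG on both strands, and 72.3% of all 32851 promoter windows held it. The letters are a description and show nothing about binding.

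No other skeletal muscle gene was called. All 20 genes of the muscle list were tested, 2 of them called (Tnnc2 and Pvalb) and no other member without overlap, against 7.4% of tested genes without overlap in either direction. The list was chosen with earlier results of these data known, so its count is not independent evidence. Its median log2 fold change was -0.51, beside 0 over all tested genes. Myh4, a fast myosin heavy chain, had 3978, 6690 and 5482 counts in KO and 4480, 24155 and 11901 in WT (-1.10 ± 0.90, edgeR adjusted p = 0.609). Tnnt3, the fast troponin T, had 1385, 742 and 13 in KO and 2679, 7237 and 925 in WT (-2.21 ± 1.26, adjusted p = 0.491). Acta1, skeletal actin, had 4007, 4502 and 2877 in KO and 1915, 4767 and 5168 in WT, and the giant sarcomere protein gene Ttn had 6852, 3041 and 3399 against 382, 11360 and 8963. Tpm2, a tropomyosin of slow and fast muscle, stood the other way, with 5504, 4034 and 10598 in KO and 2136, 8484 and 4445 in WT (0.73 ± 1.30). In RefSeq, Tpm2 overlaps Car9, so its counts are uncertain. Over the list, 8 fitted folds were above 0 and 11 below. WT replicate 2 was the highest library in CPM for 9 of the 19 members with a day 39 count, among them Tnnc2, Pvalb, Myh4, Tnnt3, Ttn and Ckm, the muscle creatine kinase, with 684, 775 and 11 counts in KO and 334, 11422 and 5 in WT. The summed level of the list was 5743 to 7908 CPM in KO, and 5289, 20461 and 10131 CPM in WT, so WT replicate 1 lay below every KO library. The labels describe sorted macrophages, which are not known to make these proteins. The part of muscle RNA in the 2 calls was not tested.

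**Figure D2:**
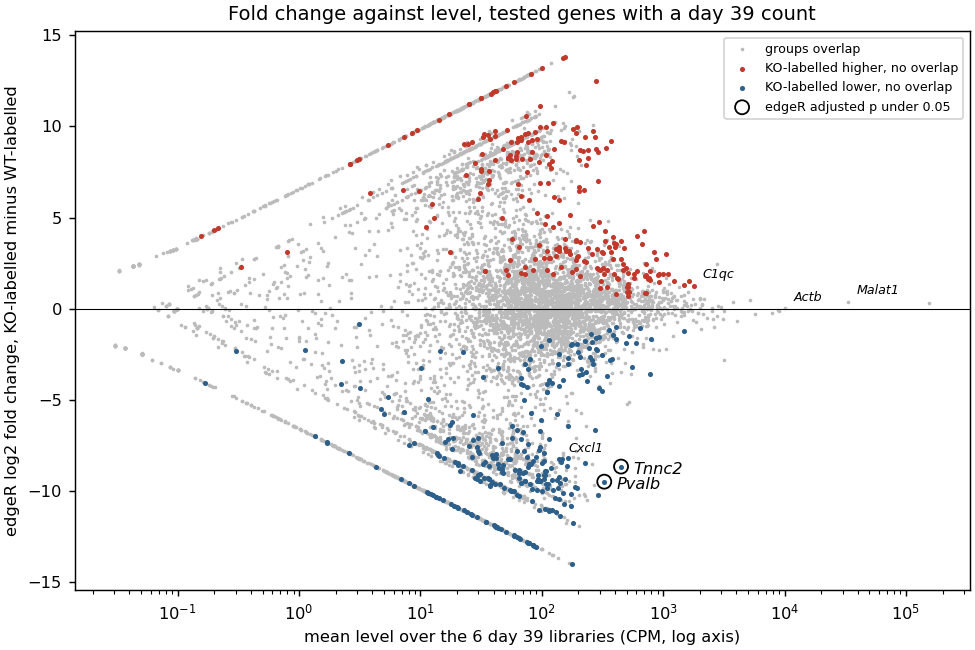
The edgeR log2 fold change, KO-labelled minus WT-labelled, against the mean CPM over the 6 day 39 libraries (log axis), for tested genes with a day 39 count. Circles mark the 2 genes with an adjusted p under 0.05, Tnnc2 and Pvalb, and colours mark genes whose groups do not overlap. Folds fan out at low levels, and abundant genes such as Actb and Malat1 lie near 0.

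Of the 6987 tested genes, 238 (3.41%) had higher CPM in every KO than in every WT library and 279 (3.99%) lower CPM, and none of these counts is a result of a test across genes. In 31 of the genes higher and 100 of the genes lower, a library of the higher group was itself at 3 counts or fewer, where an order is within counting error. Without KO replicate 3 the counts were 497 and 476. Among the 845 genes averaging 1000 counts or more, 76 (8.99%) were higher and 34 (4.02%) lower without overlap. The genes below had the smallest unadjusted p among them. With the exception of Tnnc2 and Pvalb, each had an edgeR adjusted p of 0.491. DESeq2 called 12 of these 20 genes, beside 7.94% of all tested genes, but the genes were picked for their separation and small p, which favours a call.

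Among the genes higher in KO, Dag1, which encodes the matrix receptor dystroglycan, had 1980, 3267 and 3693 counts in KO and 10, 0 and 3 in WT. Plec, the cytoskeletal linker plectin, had 1488, 772 and 3866 in KO and 5, 0 and 4 in WT. Both were close to absent from the 3 WT libraries. Il13ra1, a chain of the receptor of interleukin-13 and interleukin-4, had 1142, 4102 and 1135 counts in KO and 9, 0 and 3 in WT. Duoxa2, the maturation factor of the epithelial oxidase Duox2, had 1996, 1420 and 3063 in KO and 9, 0 and 5 in WT, and none at day 0. Wipf2, which binds the actin regulator WASP, had 2500, 1091 and 4039 in KO and 8, 5 and 5 in WT. Denr, a factor of translation reinitiation, and Epn1, an endocytic adaptor, were likewise above 1500 counts in every KO library and at most 42 in WT. Rbm26, an RNA-binding protein, had 3741, 2312 and 52 in KO and 14, 0 and 2 in WT, so KO replicate 3 stood near the WT libraries. In RefSeq, Plec overlaps Mir1942 and Il13ra1 overlaps Gm42406, and the reads of overlapping genes are uncertain here.

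The other genes of this group were present in some WT libraries. Akap13, which anchors protein kinase A, had 6635, 5648 and 9723 counts in KO and 1990, 507 and 4 in WT. Its level was 1878 ± 854 CPM (SD, n = 3) in KO and 233 ± 325 CPM (n = 3) in WT (log2 fold change 3.01 ± 1.64, edgeR adjusted p = 0.491). Sycn, which encodes the zymogen granule protein syncollin of the exocrine pancreas, had 7106, 7001 and 2631 counts in KO and 52, 1 and 871 in WT. Its level was 1326 ± 542 CPM in KO and 68.9 ± 106 CPM in WT (4.27 ± 2.27, adjusted p = 0.491). At day 0 Sycn had 0, 0 and 0 counts in KO and 0 and 1 in WT. It was 1 of 2 tested genes among 15 pancreatic acinar markers. The other tested gene, the elastase gene Cela1, had 2, 173 and 3 counts in KO and 623, 374 and 0 in WT, and the other 13 markers had no count in the 6 libraries.

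Among the genes lower in KO, Nrros, which anchors latent transforming growth factor beta on myeloid cells, had 49, 14 and 2 counts in KO and 1834, 1628 and 3538 in WT. Its level was 5.34 ± 6.45 CPM (SD, n = 3) in KO and 544 ± 238 CPM (n = 3) in WT (log2 fold change -6.66 ± 3.63, edgeR adjusted p = 0.491). Mgll, the monoacylglycerol lipase that releases arachidonic acid from an endocannabinoid, had 917, 221 and 271 counts in KO and 999, 20026 and 1345 in WT. WT replicates 1 and 3 stood close to KO replicate 1, and WT replicate 2 was far above (-3.58 ± 1.56). H2-M2, a nonclassical MHC class I gene, had 0, 385 and 10 counts in KO and 2844, 2041 and 2583 in WT (-4.51 ± 2.22). Lst1, an immunomodulatory gene of the MHC region, had 8, 0 and 6 in KO and 8, 4322 and 2559 in WT, so WT replicate 1 did not differ from KO replicate 1 in counts. D5Ertd579e, a gene with no established role, had 1, 0 and 4 in KO and 942, 6406 and 1200 in WT. Zc3h11a, a zinc finger protein of mRNA export, had 298, 0 and 240 in KO and 4366, 621 and 2146 in WT. Zc3h11a overlaps Zbed6, and Mgll overlaps Gm26588, so these counts are uncertain.

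Krtdap and Sfn, genes of stratified squamous epithelium, were also lower without overlap. Krtdap, a keratinocyte differentiation gene, had 362, 872 and 8 counts in KO and 779, 6811 and 1919 in WT, so KO replicate 2 and WT replicate 1 nearly met. Sfn, the epithelial 14-3-3 protein sigma, had 13, 793 and 584 in KO and 2755, 9737 and 1770 in WT. WT replicate 2 was again the highest for both.

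A stricter split asked which genes had at least 100 counts in every library of a group and 3 or fewer in every library of the other. Of 10961 genes with a day 39 count, 20 (0.182%) were present in KO only by this rule and 26 (0.237%) in WT only. All 46 were tested and edgeR called 0 of them. DESeq2 called 37 and limma-voom 21, beside 7.94% and 0.487% of all tested genes. The split chose these genes by the same difference, so those calls are no further evidence. Leaving out KO replicate 3 raised the numbers to 69 and 42. With a minimum of 1000 counts in place of 100 no gene remained on either side.

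The most abundant genes of the split in KO were Sh3bp5, 9930021J03Rik, Bmpr2, Rsbn1l and Ctdnep1. Sh3bp5, a regulator of the GTPase Rab11 that also binds the kinase Btk, had 2589, 1311 and 792 counts in KO and 3, 0 and 1 in WT. Bmpr2, the type II receptor of bone morphogenetic proteins, had 803, 327 and 2195 in KO and 3, 0 and 3 in WT. Ctdnep1, a phosphatase of the nuclear envelope, had 829, 947 and 840 in KO and 2, 0 and 0 in WT. The 3 KO libraries of Ctdnep1 were close to each other, which was uncommon in these data. In RefSeq, Ctdnep1 overlaps Elp5 and Gm51904, so its counts are uncertain. Rsbn1l had 991, 270 and 1500 in KO and 2, 0 and 0 in WT, and 9930021J03Rik had 2143, 508 and 1512 in KO and 3, 0 and 1 in WT. Genes that had no WT count at all and belonged to this split, Mydgf and Ank1, were chosen after their values were seen. Mydgf, a secreted growth factor of myeloid cells, had 315, 324 and 327 counts in KO, at least 113-fold above the floor of 3 counts per WT library. Ank1, an ankyrin of red cells and muscle, had 451, 635 and 213, at least 143-fold above it. Bhlhe40, a transcription factor of macrophage proliferation, had 777, 438 and 844 counts in KO and 2, 0 and 0 in WT, and was also chosen after its values were seen.

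The most abundant genes of the split in WT were Arid1b, Sorl1, Mrpl12, Numa1 and Ogg1. Arid1b, a subunit of the SWI/SNF chromatin remodeller, had 0, 0 and 3 counts in KO and 2015, 1219 and 964 in WT. Sorl1, a sorting receptor, had 0, 1 and 1 in KO and 1553, 197 and 1826 in WT. Mrpl12, a mitochondrial ribosomal protein, had 0, 1 and 3 in KO and 432, 3069 and 693 in WT, and Numa1, which organises the mitotic spindle, had 1, 0 and 1 against 1629, 295 and 1291. Ogg1, an enzyme that repairs oxidised guanine, had 0, 0 and 3 in KO and 593, 533 and 2461 in WT, and overlaps Camk1. Stat6 and Igf1r, chosen after their values were seen, also belonged here. Stat6, the transcription factor downstream of the interleukin-4 and interleukin-13 receptors, had 0, 3 and 3 counts in KO and 696, 100 and 1249 in WT. Il13ra1, a receptor chain upstream of it, was higher in KO without overlap, as given above, and Il4ra overlapped with 707, 3909 and 1541 counts in KO and 2891, 660 and 149 in WT. Igf1r, the receptor of insulin-like growth factor 1, had 1, 1 and 2 counts in KO and 1387, 733 and 769 in WT. Its ligand gene Igf1 had 0, 2 and 4 in KO and 732, 0 and 1094 in WT, so it was nearly absent from KO and from 1 of the WT libraries.

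The gene lists that follow were read against the background of all tested genes. Over the 28 lists, 412 of 539 genes in the files were tested, 18 (4.37%) were higher in KO without overlap and 17 (4.13%) lower. These shares stand beside 3.41% and 3.99% of all tested genes, so the lists together were near the background. In edgeR no list other than the muscle list held a call. DESeq2 called 23 of the 412 genes (5.58%), in 14 of the lists, beside 7.94% of all tested genes. With limma-voom, 4 (0.971%) were called, in 3 of the lists, beside 0.487% of all tested genes. Hpgds and Map2k3 were called by both tools.

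**Figure D3:**
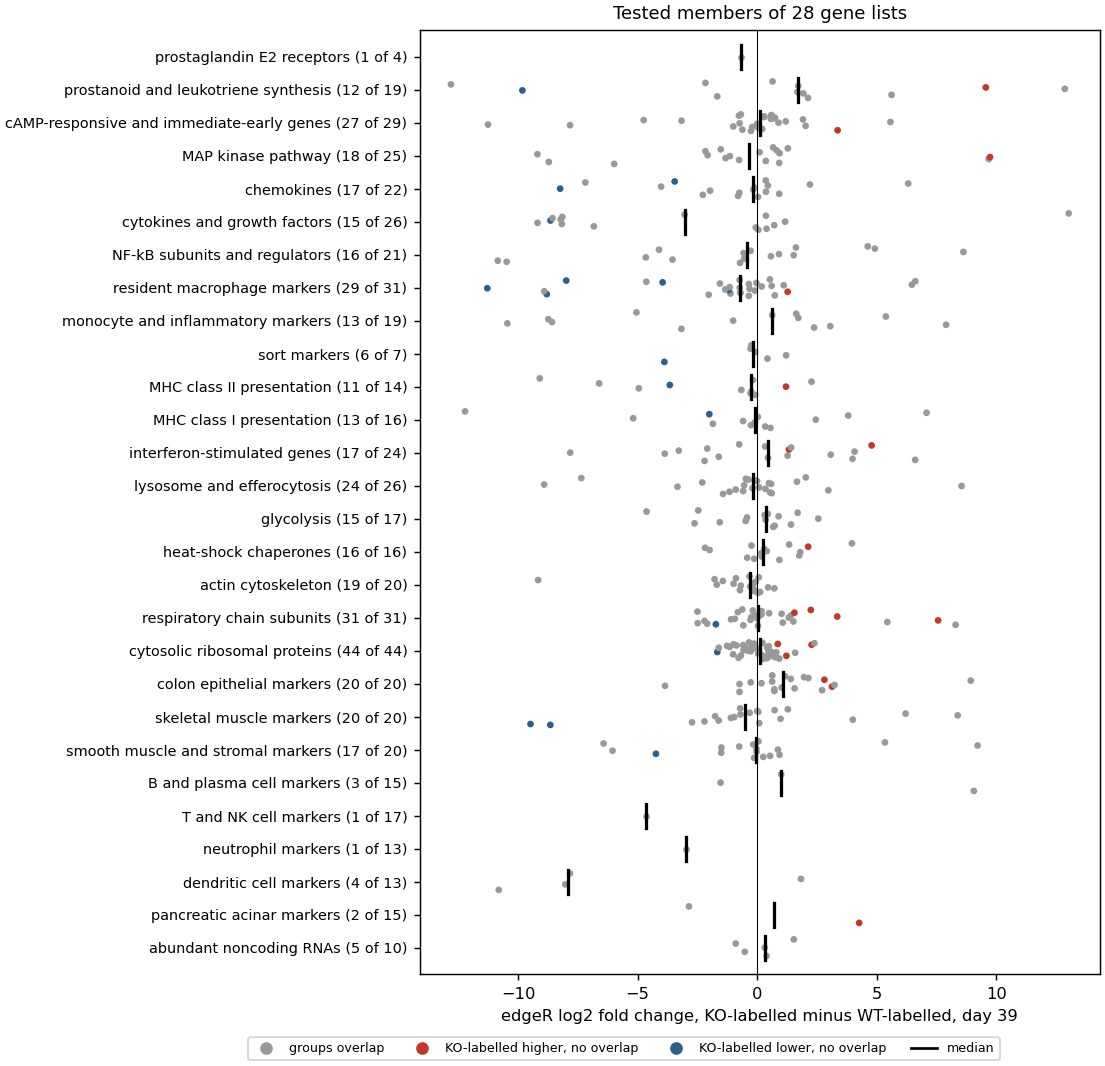
The edgeR log2 fold change, KO-labelled minus WT-labelled at day 39, of each tested member of 28 gene lists, with the number tested of the number in the list and the median as a bar. Red and blue points are genes whose groups do not overlap. Medians of lists with at least 10 tested genes lay between -3.04 and 1.70, and the 2 blue points far left in the muscle list are Tnnc2 and Pvalb.

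In prostanoid and leukotriene synthesis, 12 of 19 genes were tested, 0 were called, 1 was higher and 1 lower without overlap, and the median log2 fold change was 1.70. Hpgds, the haematopoietic prostaglandin D2 synthase, had 1, 2 and 0 counts in KO and 192, 1087 and 1821 in WT. The adjusted p was 0.491 in edgeR, 0.00550 in DESeq2 and 0.0380 in limma-voom. It belonged to the split in WT, and so had been picked by this difference. DESeq2 also called Ptgis (higher) and Ptgr1, a reductase that inactivates prostaglandins (lower). Ptgis, the prostacyclin synthase, had 2, 514 and 1161 in KO and 1, 0 and 1 in WT. KO replicate 1 was at the WT level for Ptgis, and the depth could not separate it. Of the cyclooxygenases, Ptgs1 had 0, 1123 and 3 counts in KO and 3, 267 and 4 in WT, and Ptgs2 was too low to test, with 2, 0 and 4 in KO and 7, 505 and 0 in WT. Ptges, the inducible prostaglandin E synthase, had 3 counts in KO replicate 1 and none elsewhere at day 39. Tbxas1, the thromboxane synthase, had 1836 counts in KO replicate 1 and none in the other 5 libraries. Cbr1, a carbonyl reductase that converts prostaglandin E2 to F2 alpha, had 310, 1342 and 1168 in KO and 86, 222 and 639 in WT (1.72 ± 3.22). The prostaglandin importer Slco2a1 had 1002, 0 and 471 in KO and 341, 0 and 0 in WT. The summed level of the list was 859 to 1071 CPM in KO and 531 to 702 CPM in WT, without overlap under each of the 4 scalings tried. Tbxas1 alone gave 475 of the 1071 CPM of KO replicate 1, so the place of that library above WT rested on 1 gene.

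Downstream of EP4, 27 of 29 cAMP-responsive and immediate-early genes were tested, 0 were called, 1 was higher and 0 lower without overlap, and the median was 0.11. Of these, 13 had at least 100 counts in each of the 6 libraries. DESeq2 called Pde4d, a phosphodiesterase that degrades cAMP, with no KO count and 159, 585 and 0 in WT. Fos had 3263, 7636 and 6324 counts in KO and 8733, 9235 and 9463 in WT (-0.62 ± 1.02, edgeR adjusted p = 0.96). Its CPM groups overlapped. Jun (0.11 ± 0.77), Junb (0.04 ± 0.79, with a negative sign under library size only and upper-quartile scaling), Dusp1 (-0.01 ± 1.12) and Klf6 (0.74 ± 1.06) also overlapped. Nr4a2, an orphan nuclear receptor that cAMP induces, was the gene without overlap, with 624, 1497 and 1050 counts in KO and 4, 393 and 1 in WT (3.36 ± 3.77, adjusted p = 0.813). Its relative Nr4a1 overlapped, with 91, 1841 and 2900 in KO and 569, 3428 and 3012 in WT.

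In the MAP kinase pathway, 18 of 25 genes were tested, 0 were called, 1 was higher and 0 lower without overlap. The median was -0.33, and 0.23 over 14 genes when folds against a group at 0 were set to their bound. Map2k3, the kinase that activates p38, was the gene without overlap, with 728, 627 and 4392 counts in KO and 6, 0 and 0 in WT. The adjusted p was 0.491 in edgeR, 0.0125 in DESeq2 and 0.0186 in limma-voom. DESeq2 also called Map3k5, a stress-activated kinase (lower). Mapk3, the kinase ERK1, had 1804, 2681 and 263 in KO and 186, 509 and 1901 in WT, and the ERK phosphatase gene Dusp6 had 2177, 586 and 590 against 6, 2081 and 1862. Both overlapped.

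Of 22 chemokines, 17 were tested, edgeR called 0 and DESeq2 only Cxcl1, 0 were higher and 2 lower without overlap, and the median was -0.16. Cxcl1, a neutrophil attractant, had 2, 8 and 2 counts in KO and 154, 1987 and 1916 in WT. The level was 0.891 ± 0.598 CPM (SD, n = 3) in KO and 277 ± 201 CPM (n = 3) in WT, so all KO libraries were near the floor and WT replicate 1 was the lowest of its group. The edgeR adjusted p was 0.491 and the DESeq2 adjusted p was 0.0151. Without KO replicate 3 the edgeR adjusted p was 0.648. At day 0 Cxcl1 had 1, 1073 and 0 counts in KO and 4 and 1 in WT. Cxcl16, a membrane-bound chemokine of macrophages and epithelium, had 232, 257 and 18 in KO and 1937, 2351 and 1134 in WT. Its level was 38.7 ± 29.4 CPM in KO and 423 ± 170 CPM in WT (-3.45 ± 3.24, adjusted p = 0.704). The related neutrophil attractant Cxcl2 did not share this order, with 7494, 4906 and 7112 counts in KO and 2757, 7269 and 14544 in WT (-0.11 ± 0.89, adjusted p = 1). Pf4, Ccl6 and Ccl8 overlapped. Ccl2, which recruits monocytes, had 1, 1335 and 487 in KO and 521, 62 and 1030 in WT.

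Of 26 cytokines and growth factors, 15 were tested, 0 were called, 0 were higher and 1 lower without overlap, and the median was -3.04. DESeq2 called Igf1 and Pdgfb lower and Tnfsf12, a TNF family ligand, higher. Pdgfb, a platelet-derived growth factor chain, had 1, 1 and 2 counts in KO and 280, 0 and 1095 in WT, and Tnfsf12 had 0, 96 and 1778 in KO and none in WT. Il1b was the abundant member, with 10526, 16929 and 23139 counts in KO and 7192, 5478 and 29785 in WT (0.39 ± 0.75, edgeR adjusted p = 0.984). After scaling, the third libraries of both groups were alike, at 6667 CPM in KO and 6523 CPM in WT. Il1rn, the antagonist of interleukin-1, had 807, 1160 and 4144 in KO and 1040, 661 and 5756 in WT. Tnf had 1, 582 and 3306 in KO and 5, 0 and 2971 in WT. For these 3 genes the third library of each group was the highest. Pdgfa, a growth factor of stromal cells, was the gene without overlap, with 0, 1 and 1 counts in KO and 1, 262 and 781 in WT. WT replicate 1 was at the KO level, within counting error. Il10, the cytokine that restrains gut inflammation, had no count in KO and 3, 0 and 1 in WT, and was not tested.

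Of 21 genes of the NF-kB family and its regulators, 16 were tested, 0 were called and 0 lay without overlap. The median was -0.41. The inhibitor gene Nfkbia had 5644, 10663 and 9538 counts in KO and 13819, 7029 and 16987 in WT (-0.54 ± 0.82, edgeR adjusted p = 0.929). Nfkbiz, a nuclear inhibitor family member, had 4139, 1377 and 8785 in KO and 2291, 1369 and 5072 in WT (0.91 ± 1.41). Nfkb2, a subunit of the alternative pathway, had 2, 2 and 0 in KO and 1936, 0 and 3746 in WT, so WT replicate 2 was with the KO libraries, and DESeq2 called it (adjusted p = 0.0201).

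Of 31 resident macrophage markers, 29 were tested, 0 were called, 1 was higher and 5 lower without overlap, and the median was -0.71. The 3 chains of complement C1q stood on different sides of 0, none with a call. C1qc had 6529, 12897 and 11467 counts in KO and 2549, 7614 and 4310 in WT, at 2510 ± 808 CPM (SD, n = 3) in KO and 1040 ± 324 CPM (n = 3) in WT (1.27 ± 0.92, edgeR adjusted p = 0.526). The C1qc groups did overlap when scaled by library size alone or by the upper quartile. C1qa, the neighbouring chain of the same complex, had 5119, 11104 and 2605 in KO and 7632, 8818 and 13688 in WT (-0.70 ± 0.82), and C1qb gave -0.71 ± 1.05. Apoe, a lipoprotein of macrophages, gave -0.09 ± 0.41. Csf1r, the receptor that maintains macrophages, had 1906, 3961 and 1329 in KO and 2679, 4558 and 2125 in WT (-0.35 ± 1.27).

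The markers lower without overlap were Cd68, Ms4a7, Cd163, Trem2 and Cd4. Cd68, a lysosomal glycoprotein, had 1127, 681 and 784 counts in KO and 1522, 2243 and 2795 in WT, at 217 ± 78.8 CPM (SD, n = 3) in KO and 496 ± 104 CPM (n = 3) in WT (-1.19 ± 2.36, edgeR adjusted p = 0.99). Ms4a7, a tetraspan gene of mature macrophages, had 1, 421 and 7 in KO and 1245, 1902 and 2738 in WT (-3.96 ± 2.72, adjusted p = 0.505). Cd163, the scavenger receptor of haemoglobin, had 0, 0 and 2 in KO and 28, 436 and 880 in WT. Trem2, a lipid-sensing receptor, had no KO count and 24, 22 and 676 in WT, which makes it at least 71.4-fold lower in KO when each KO library is set to the floor of 3 counts. WT replicate 3 carried this bound, which was 7.61-fold without it. Cd4, which marks long-lived gut macrophages, had 2, 2 and 0 in KO and 5, 70 and 1073 in WT, where WT replicate 1 was hardly higher. DESeq2 called Cd163 and Cd4 of this list. Other markers overlapped, among them Cx3cr1 with 3748, 4251 and 1646 counts in KO and 14, 2796 and 3889 in WT, and Adgre1 with 3, 1333 and 431 against 358, 884 and 5993. Summed over the list, the level was 18427 to 24316 CPM in KO and 20060 to 32316 CPM in WT.

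Of 19 monocyte and inflammatory markers, 13 were tested, 0 were called and 0 lay without overlap, with a median of 0.63. Ccr2, the receptor by which monocytes enter tissue, had 1, 1263 and 2625 counts in KO and 7, 633 and 11 in WT. Plac8, a gene of monocytes, had 5, 2870 and 2373 in KO and 15, 0 and 3 in WT, with an adjusted p of 0.491 in edgeR and 0.0313 in DESeq2. DESeq2 also called Vcan, a matrix proteoglycan of monocytes, which stood the other way with 2, 0 and 0 counts in KO and 1577, 1772 and 2 in WT. Ly6c2, whose product the sort selected against, had 2100, 6 and 2 in KO and 6, 556 and 2 in WT. The summed level of the list was 2280 ± 550 CPM (SD, n = 3) in KO and 1388 ± 152 CPM (n = 3) in WT, without overlap under TMM and DESeq2 size factors and with overlap under the other 2 scalings.

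Of 14 genes of MHC class II presentation, 11 were tested, 0 were called, 1 was higher and 1 lower without overlap, and the median was -0.28. H2-DMb1, a chain of the peptide exchange factor H2-DM, had 0, 107 and 238 counts in KO and 1950, 1588 and 1122 in WT (-3.65 ± 1.99, edgeR adjusted p = 0.491). H2-DMa, the other chain, had 1567, 5558 and 2274 in KO and 842, 2127 and 1324 in WT (1.20 ± 1.59), but its groups overlapped under the other 3 scalings, and it overlaps Brd2. The invariant chain gene Cd74 had 8713, 26389 and 6644 in KO and 10287, 28076 and 30079 in WT (-0.66 ± 0.60, adjusted p = 0.671). Of 16 genes of MHC class I presentation, 13 were tested, 0 were called, 0 were higher and 1 lower without overlap, with a median of -0.09. That gene was Psmb8, an immunoproteasome subunit, with 6, 388 and 454 in KO and 1470, 908 and 1025 in WT. H2-K1 (0.56 ± 0.82) and B2m (-0.26 ± 0.75) overlapped. DESeq2 called H2-M3, which had no KO count and 0, 11 and 1 in WT, and Nlrc5, the activator of class I genes, which had none in KO and 0, 1541 and 91 in WT.

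Of 24 interferon-stimulated genes, 17 were tested, 0 were called, 2 were higher and 0 lower without overlap, and the median was 0.45. Ifitm3, which restricts virus entry, had 6203, 9889 and 9566 counts in KO and 1004, 4128 and 6618 in WT, at 2100 ± 591 CPM (SD, n = 3) in KO and 838 ± 576 CPM (n = 3) in WT (1.33 ± 1.12, edgeR adjusted p = 0.626). Zbp1, a sensor of Z-form nucleic acid, had 822, 936 and 4551 in KO and 6, 324 and 2 in WT (4.79 ± 3.21, adjusted p = 0.498). Other members overlapped, with Irf1 at 0.45 ± 2.09, Irf8 at 1.27 ± 2.13 and Ly6e at -0.75 ± 1.38. The summed level of the list was 4817 ± 684 CPM in KO and 3089 ± 354 CPM in WT, without overlap under the 4 scalings. Most of this difference was that of Ifitm3.

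**Figure D4:**
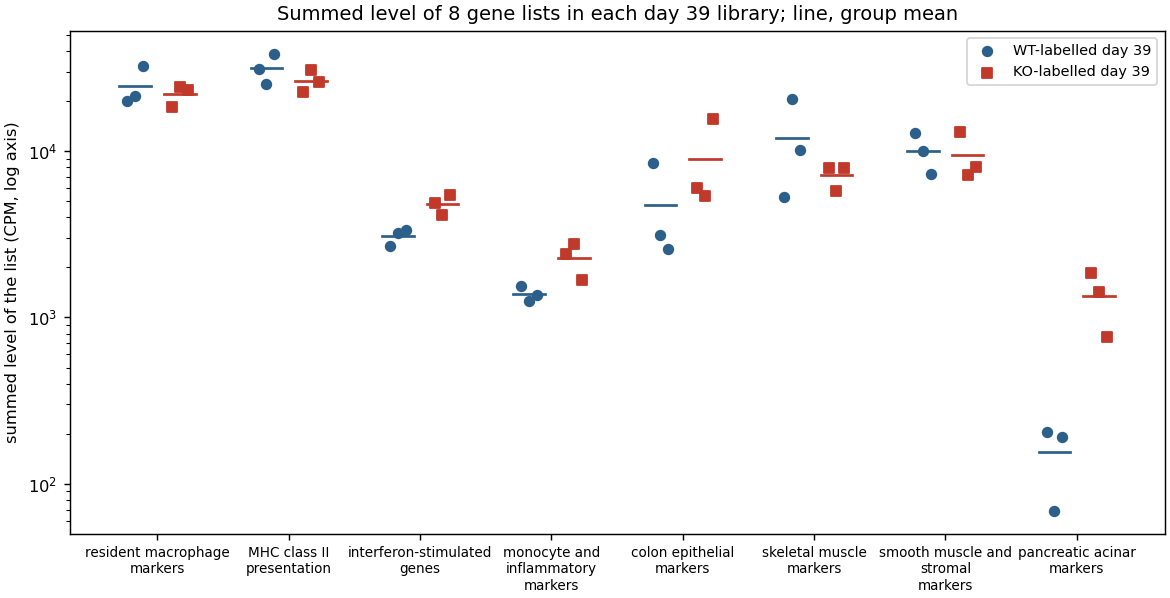
Summed CPM (log axis) of 8 gene lists in each day 39 library, with WT-labelled libraries as circles, KO-labelled libraries as squares and the group mean as a line. The interferon-stimulated, monocyte and acinar sums did not overlap between groups under TMM. With library size only or upper-quartile scaling the monocyte sum overlapped. Among the 28 lists, the sums of prostanoid synthesis and heat-shock chaperones also lay without overlap under TMM. All of these were higher in KO, and the sums of the other lists overlapped. The acinar sum, which in KO is almost that of Sycn alone, was 759 to 1838 CPM in KO and 69.0 to 205 CPM in WT. The muscle sum was highest in WT replicate 2, at 20461 CPM.

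Lists of general cell functions had medians near that of all genes. Of 26 lysosome and efferocytosis genes, 24 were tested, with 0 called, 0 without overlap and a median of -0.16. Psap, the precursor of saposins, had 19743, 31723 and 23688 counts in KO and 12953, 14832 and 28768 in WT (0.49 ± 0.56), and the lysosomal adaptor Laptm5 gave 1.66 ± 1.15 (edgeR adjusted p = 0.508). Of 17 glycolysis genes, 15 were tested, with 0 called, 0 without overlap and a median of 0.35, and Hk2, Aldoa and Pkm overlapped. All 16 heat-shock chaperones were tested, with 0 called and a median of 0.25. Dnaja1, a co-chaperone of Hsp70, was higher without overlap, with 2418, 2544 and 1928 counts in KO and 61, 137 and 1554 in WT. Summed over the chaperones, the level was 13888 to 16713 CPM in KO and 9211 to 13750 CPM in WT, groups close to touching. Of 20 actin cytoskeleton genes, 19 were tested, with 0 called and 0 without overlap, and Actb gave 0.04 ± 0.40, with a negative sign under library size only and upper-quartile scaling. DESeq2 called Capza2, a capping protein subunit, with 1, 1 and 5 counts in KO and 2, 459 and 4706 in WT.

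All 31 respiratory chain genes were tested, 0 were called, 4 were higher and 1 lower without overlap, and the median was 0.03. Atp5a1, the alpha subunit of ATP synthase, had 3273, 5343 and 5570 counts in KO and 2572, 241 and 1675 in WT (1.56 ± 1.55, edgeR adjusted p = 0.746). Cox5a, a cytochrome oxidase subunit, had 633, 1684 and 1229 in KO and 37, 388 and 4 in WT. DESeq2 called Sdhb, a succinate dehydrogenase subunit, with 6, 31 and 623 in KO and 1, 1 and 2 in WT. The complex I gene Ndufa13 was lower, with 78, 74 and 433 in KO and 549, 925 and 876 in WT. All 44 ribosomal protein genes were tested, 0 were called, 3 were higher and 1 lower without overlap, and the median was 0.12. Rpl13 had 3006, 2721 and 2749 counts in KO and 1104, 1556 and 1287 in WT, at 702 ± 143 CPM (SD, n = 3) and 301 ± 29.6 CPM (n = 3; edgeR adjusted p = 0.855). Rpl35 had 1037, 793 and 576 in KO and 1894, 5625 and 1229 in WT (-1.67 ± 2.01), with overlap under DESeq2 size factors. Genes of the same particle thus stood on both sides. Among abundant noncoding RNAs, the ribosomal precursor Rn45s took at least 11.4% of the counts of each library and gave 0.32 ± 0.15 (adjusted p = 0.491), and Malat1 gave 0.39 ± 0.29 (adjusted p = 0.538). Their groups overlapped, and limma-voom called both.

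Epithelial, muscle and stromal markers were counted in all 6 libraries. All 20 colon epithelial markers were tested, 0 were called, 2 were higher and 0 lower without overlap, and the median was 1.10. A fitted fold above 0 was found in 16 of the 20, beside 3419 above and 3382 below 0 among all tested genes. DESeq2 called Tff3, a trefoil peptide of goblet cells, with 1157, 4 and 1271 counts in KO and 3, 1 and 1 in WT. Cdh17, an intestinal cadherin, had 2010, 1612 and 2915 counts in KO and 9, 279 and 628 in WT (3.13 ± 3.23, edgeR adjusted p = 0.764). Fcgbp, a mucus protein of goblet cells, had 327, 439 and 1298 in KO and 255, 0 and 1 in WT. The goblet mucin gene Muc2 overlapped, with 4539, 1631 and 5534 in KO and 5674, 1386 and 121 in WT, as did Car1 and Krt19. Summed over the list, the level was 5997, 5341 and 15505 CPM in KO and 8494, 3145 and 2579 CPM in WT. It was highest in KO replicate 3, the library in which Ptger4 went against the label, and none of the 20 markers was at 0 in all 6 libraries. Among the genes named above, Duoxa2 is epithelial, and the part of epithelial RNA in the differences was not tested.

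Of 20 smooth muscle and stromal markers, 17 were tested, 0 were called, 0 were higher and 1 lower without overlap, with a median of -0.03. The collagen genes Col1a1 (-0.13 ± 0.66) and Col3a1 (0.54 ± 0.86) overlapped. Col6a2 had 2, 0 and 144 counts in KO and 653, 1722 and 1265 in WT, and Sparc, a matrix glycoprotein, had 3830, 738 and 2552 in KO and 1625, 20269 and 4961 in WT. WT replicate 2, the highest for the muscle list, was also the highest for Sparc. Markers of other blood cells were uneven, and most could not be tested. Of 17 T and NK cell markers 1 was tested and 11 had no day 39 count, Cd3e among them. Of 15 B and plasma cell markers 10 were in the tables used and 3 were tested. Cd79a had no count, and Xbp1, a secretory factor that other cells also express, had 1610, 67 and 15 counts in KO and 2749, 993 and 1085 in WT. Of 13 neutrophil markers 1 was tested: S100a8 had 26, 0 and 42 counts in KO and 3, 0 and 666 in WT. Of 13 dendritic cell markers 4 were tested. The most abundant, Clec10a, a lectin that macrophages also express, had 0, 1836 and 1621 counts in KO and 13, 1235 and 9 in WT (1.83 ± 3.02), and Itgax stood the other way, with 1, 3 and 5 in KO and 1449, 940 and 0 in WT, and was called by DESeq2 (adjusted p = 0.0469).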

How the data were processed

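Per the labels' protocols, Trizol was used to obtain RNA of the sorted colon cells and the Lexogen QuantSeq 3′ kit to make libraries. The deposited tables hold whole-number counts per mouse gene symbol. The submitters' processing notes name Bowtie2, edgeR and the human build hg19, without roles or versions. The symbols are those of mouse genes, and the counting, the strand setting and the use of molecular identifiers are not given in the sources used here. Symbols that repeat or share equal counts (139 genes in 69 sets), and genes that overlap in RefSeq, are therefore uncertain. Such overlaps are named above for some genes only, and other named genes have them too.

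Counts were filtered with filterByExpr in edgeR 4.0.16 (R 4.3.3), which kept 6987 genes and left 16295 untested, and scaled by TMM. A robust quasi-likelihood model with 4 group coefficients was fitted to all 11 libraries, so that the groups share an estimate of spread. Two-sided tests of KO minus WT at day 39 and of the interaction with day were adjusted by the Benjamini-Hochberg method over all tested genes. The SE was derived from the fold change and its F statistic. CPM are counts scaled to a TMM-adjusted sum over tested genes of 1000000. The floor was 3 counts per library; floors cover counting error only, since PCR copies are not independent molecules.

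Groups and numbers came from the titles. The members and lists were chosen with earlier results of these data known. The genes named are all called genes, the 10 per direction with the smallest unadjusted p among tested genes averaging 1000 counts or more over the 6 libraries and no overlap in CPM, the 5 per direction of the detection split with the highest mean CPM, Ptger4 and the sort markers, and up to 4 abundant members of each list. Other genes were chosen after their values were seen. Same-numbered libraries of the groups were not paired by any label. Alternatives were other scalings, DESeq2 1.42.0, limma-voom (limma 3.58.1), a non-robust fit, other filters, low counts set to 0, the 6 libraries alone, a replicate block and leaving out each library. Permutation tests used SciPy 1.17.1.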

Additional observations from a re-analysis of the deposited data

How the results depend on the processing

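The count of 2 called genes depended on the processing. It was 0 with upper-quartile scaling (643 genes at an unadjusted p under 0.05), without a filter (428), with a mean of at least 10 (470) or 1000 counts (36) and with only the 6 day 39 libraries (136 of 2973 genes tested), 34 with limma-voom and 555 with DESeq2, which gave no adjusted p for 2751 genes. DESeq2 called both Tnnc2 and Pvalb, and limma-voom called neither (adjusted p = 0.334 and 0.738). DESeq2 and limma-voom shared 30 calls. Leaving out each library gave 0 to 2 calls, with 0 without KO replicate 1, KO replicate 2 or WT replicate 2. With DESeq2 size factors, library size only or counts of 10 or fewer set to 0 the same 2 genes were called, and the fit without robust estimation added Rn45s. The interaction, with 0 genes called, gave 2 with DESeq2 size factors or library size only, 5 with upper-quartile scaling, 4 without robust estimation, 1 with low counts set to 0, 19 with limma-voom, 934 with DESeq2 and 0 to 3 without single libraries. The cause was not tested.

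Deviations of same-numbered libraries correlated at 0.0098, 0.0021 and 0.0268, and those of differently numbered libraries at -0.025 to 0.015. With so many values near 0 counts, these correlations could not decide whether the numbers pair the libraries. With the number as a replicate block, 0 genes were called and 47 had an unadjusted p under 0.05.

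The detection split of 20 genes in KO and 26 in WT became 32 and 50 at a minimum of 10 counts and 0 and 0 at 1000. Allowing 10 counts in the other group gave 41 in KO and 34 in WT. Single libraries left out gave 26 to 81 in KO and 42 to 138 in WT, where fewer libraries make the rule easier to meet. The 238 genes higher and 279 lower without overlap were 76 and 34 at a mean of at least 1000 counts, 355 to 635 and 460 to 712 without single libraries; these alternatives were chosen after seeing the data. The Ptger4 difference of -258 CPM ranged from -690.2 to 194 CPM without single libraries, and its log2 fold change from -9.52 to 0.86, the latter without WT replicate 3. Most named genes were picked because their groups do not overlap, so a kept sign says little. Under another scaling the sign turned for 19 of 439 tested genes that are listed or named, Actb, Junb, Acta1 and Dusp6 among them, with a log2 fold change of at most 0.195 in size under TMM. Among the 68 genes followed through the alternatives in which they were tested it turned, besides Ptger4, for Itgam (0.43; -1.38 with limma-voom, -0.16 with the replicate block, -7.38 to 1.87 without single libraries and negative without KO replicate 2 or WT replicate 3), Fcgr1 (1.21; -3.003 to 7.59, negative without KO replicate 3) and H2-Aa (-0.31 to 0.11, positive without WT replicate 3).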

Other observations

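Genes of stratified squamous epithelium, which lines the anal canal and skin rather than the colon, were counted in libraries of both labels. They were chosen after their values were seen and received no test as a group. Krt5, a basal keratin, had 519, 1051 and 847 counts in KO and 3163, 546 and 3387 in WT. Krt1, a keratin of the upper layers, had 595, 1047 and 2022 in KO and 2058, 4594 and 1886 in WT, and the cornified envelope gene Lor had 4529, 2220 and 409 in KO and 40, 9946 and 3041 in WT. The desmosome gene Dsp had 429, 2167 and 15 in KO and 35, 8023 and 6003 in WT. WT replicate 2, the highest library for the muscle list, was also the highest in CPM for Krt1, Lor and Dsp but the lowest for Krt5, and WT replicate 1 was the lowest or next to lowest for Lor and Dsp. Wfdc5, a protease inhibitor gene of keratinocytes, belonged to the split in WT, with 2, 1 and 2 counts in KO and 537, 709 and 1584 in WT. At day 0 the KO libraries 2 and 3 held 25317 and 40944 Krt1 counts and 30246 and 42497 Lor counts.

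Antimicrobial lectin genes of the colon epithelium, also chosen after their values were seen, overlapped between the labels. Reg3g had 1334, 611 and 2361 counts in KO and 255, 616 and 1523 in WT, and Reg3b had 3, 2 and 1321 in KO and 736, 299 and 1057 in WT. Sprr2a2, a small proline-rich protein gene of epithelium, had 7299, 8580 and 12576 in KO and 8229, 2537 and 8150 in WT, and 155 to 2176 at day 0.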
